A study of Rattus norvegicus with 8 samples.

Results

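In rat sciatic nerve, 402 stretches of the genome carried peaks of H3K27ac, the acetylated histone H3 of active promoters and enhancers, in both sham-operated and cut nerve, with far more acetylated sequence listed for the sham side. These sham-leaning domains were selected on the deposited peak lists of the 2 conditions, by peak number and summed peak width. Peaks of both lists were pooled and linked into a domain when the next peak began at most 12.5 kb after the furthest end so far. A domain was kept when it held 5 to 9 peaks, at least 1 of each list, and when its sham peaks together were at least 2 times as wide as its injury peaks. The rule gave 2582 peaks, 1827 sham and 755 injury, of 60008 peaks in both lists (4.30%), in 402 of 16558 domains. Since the rule used the contrast of sham with injury, the lean to sham is a property of the choice, and the values below describe these domains without a test.

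The nerves came from male Sprague Dawley rats operated on at postnatal day 25 and labelled as postnatal day 28 at collection. The injury group is nerve distal to a cut, taken 72 h after the operation, and the sham group is the nerve of the opposite leg of the operated rats, where only skin was incised. Each group has 2 chromatin immunoprecipitation (ChIP) samples and 2 inputs, but each condition is represented by 1 deposited peak list, so there is no value per sample and no spread between replicates. No read counts, peak heights or scores were at hand, the depth of the samples is unknown, and a site missing from a list was left uncalled, which does not measure its acetylation as zero. Whole nerve was profiled, so a change in the mix of cells and a change within cells cannot be told apart.

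Acetylation of lysine 27 on histone H3 is written by acetyltransferases of the CBP family that transcription factors bring to enhancers and promoters, and it is removed by histone deacetylases. Active regulatory regions often consist of several acetylated sites within a few kilobases, separated by the nucleosome-poor stretches where factors bind, which is why neighbouring peaks are commonly linked into domains. In intact nerve, Schwann cells maintain myelin under transcription factors such as SOX10 and EGR2. After a cut, the axons beyond it degenerate, Schwann cells shut down the myelin programme and take on a repair state in which JUN is prominent, and macrophages enter the nerve. Which genes the domains belong to was not determined, because positions are on the rat build Rnor_5.0 and an annotation or sequence of that build was not used here. The domains are therefore named by position.

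The typical domain was small. The span had a median of 10.1 kb and ran from 1.40 to 38.7 kb, and called peaks of either list covered a median of 23.2% of it. Domains of 5 peaks were the most frequent (139 of 402), and 42 held 9 peaks. The sham peaks of a domain summed to a median of 1996 bp (796 to 6994 bp) and its injury peaks to a median of 499 bp (199 to 2694 bp). In total the domains held 902 kb of sham peaks and 252 kb of injury peaks. The ratio of summed widths had a median of 3.34 and a highest value of 27.6; it was below 2.5 in 110 domains, 5 or more in 112 and 10 or more in 40. A single injury peak was called in 151 domains, 2 in 166, 3 in 71, 4 in 12, and 5 and 6 in 1 domain each.

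**Figure D1:**
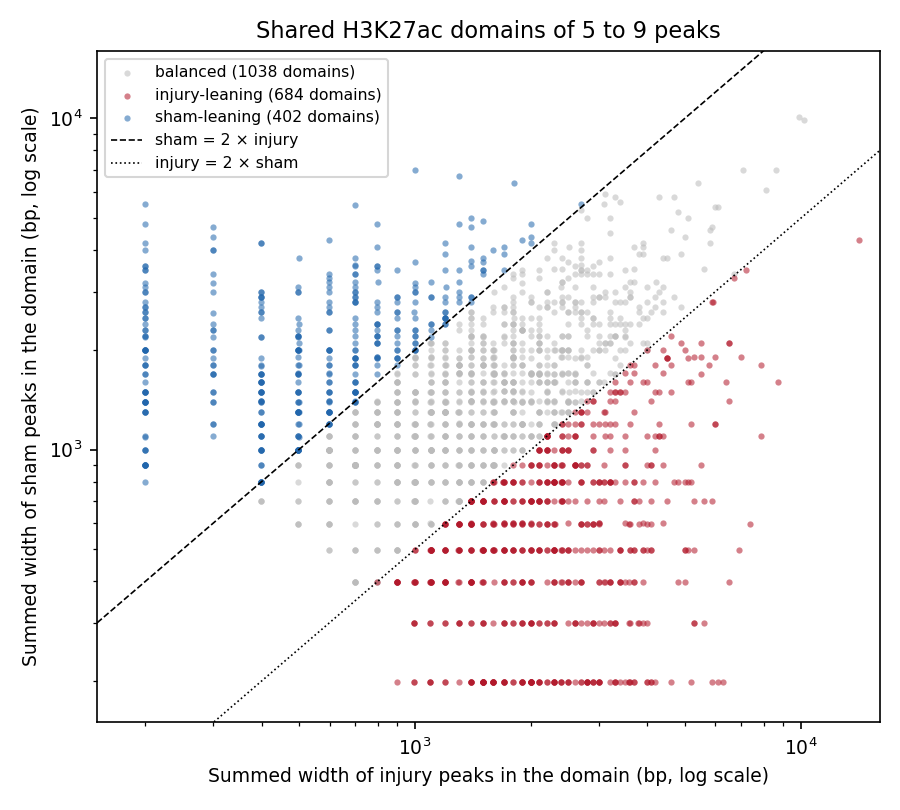
Summed width of sham peaks against summed width of injury peaks (bp, both axes logarithmic) for every shared domain of 5 to 9 peaks, 1 point per domain. The 402 sham-leaning domains lie on or above the dashed line at a ratio of 2, opposite 684 injury-leaning domains on or below the dotted line and 1038 balanced domains between the lines.

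Among all 2124 shared domains of 5 to 9 peaks, 18.9% leaned to sham, 32.2% leaned to injury by the mirrored rule (684 domains) and 48.9% were balanced. The injury list was the larger of the lists, with 16.9 Mb against 13.2 Mb of sham peaks. With each summed width divided by the total width of its list, 523 domains leaned to sham and 515 to injury.

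A domain can lean to sham because it holds more sham peaks, because its sham peaks are wider, or both. The number of sham peaks was at least 2 times that of injury peaks in 272 domains (67.7%), and the mean sham peak was at least 2 times as wide as the mean injury peak in 108 (26.9%). Both held in 50 domains. In 72 domains neither ratio reached 2 alone, and the lean came from the 2 together. The median ratio of peak numbers was 2.5 and that of mean widths 1.52. Sham peaks of the domains averaged 494 bp and injury peaks 333 bp, with the same median of 299 bp. In 63 domains the mean sham peak was narrower than the mean injury peak, and 16 domains held as many injury as sham peaks. In 10 domains injury peaks outnumbered sham peaks. The rule requires a ratio of mean widths above 2 in such domains, and it was 2.80 to 4.51. In the injury-leaning domains, taken the other way round, the median ratio of numbers was 2 and that of mean widths 1.82, and 44.3% reached a width ratio of 2.

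**Figure D2:**
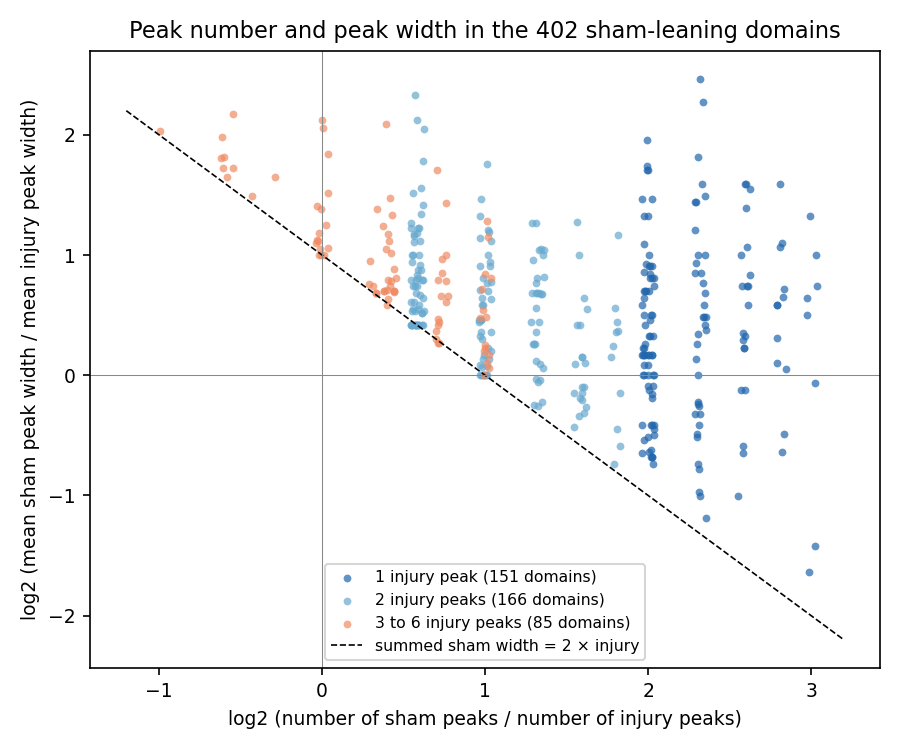
For each of the 402 sham-leaning domains, the log2 ratio of peak numbers, sham over injury (horizontal, spread slightly so that points do not hide each other), and the log2 ratio of mean peak widths (vertical), coloured by the number of injury peaks. The dashed line marks a summed sham width 2 times the injury width; the 151 domains with a single injury peak lie far right, and the 10 domains with more injury than sham peaks lie at upper left.

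The few injury peaks mostly sat on sham peaks, while most sham peaks stood without an injury peak. Of the 755 injury peaks, 558 overlapped a sham peak by at least 1 bp (73.9%, 95% Wilson interval 70.7 to 76.9, which covers counting error over listed peaks only). Of the 1827 sham peaks, 503 overlapped an injury peak (27.5%, 25.5 to 29.6). Over the whole lists the shares were 39.7% of injury and 46.5% of sham peaks. In balanced domains they were 63.5% and 61.3%. The injury-leaning domains mirrored these values, with 76.0% of their sham peaks and 30.2% of their injury peaks overlapping the other list. The classes were cut from the same lists that give the overlap, so these differences were not tested.

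Wide sham peaks met an injury peak more often than narrow ones, also inside these domains. The share was 11.9% (9.58 to 14.7) of the 613 sham peaks at the smallest width of 199 bp, 24.7% of 742 peaks of 269 to 499 bp, 45.8% of 301 peaks of 599 to 999 bp and 63.7% (56.3 to 70.6) of 171 peaks over 1 kb. Each was below the share for the same width in the whole sham list, where the values were 27.2%, 48.7%, 69.1% and 81.8%, a difference that the rule favours. Width by itself raises the chance of touching another peak. At 199 bp, 64.4% of the 340 injury peaks lay on a sham peak, and 71 of the 75 injury peaks of 599 to 999 bp (94.7%) and all 11 over 1 kb did. In the whole injury list the shares for these widths were 22.5%, 55.1% and 74.0%, again a difference that the rule favours. In injury-leaning domains, 63.2% of the sham peaks at 199 bp lay on an injury peak. The place of a sham peak in its domain made little difference: 28.5% (25.4 to 31.7) of the outermost sham peaks and 26.2% (23.6 to 29.0) of those between them overlapped an injury peak, in domains with at least 3 sham peaks.

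**Figure D3:**
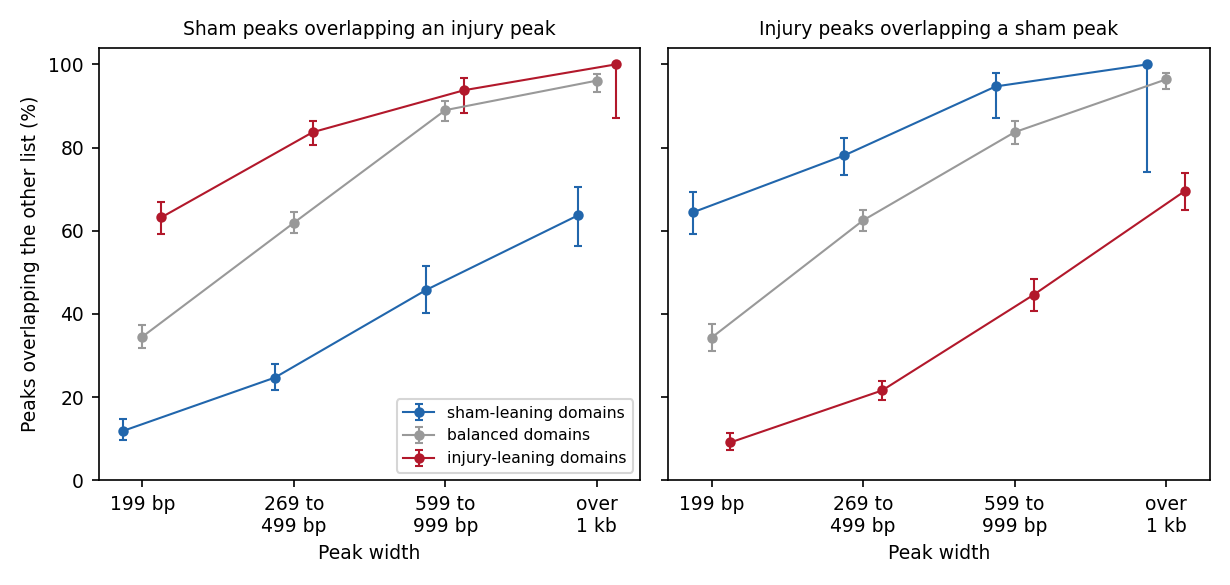
Share of sham peaks overlapping an injury peak (left) and of injury peaks overlapping a sham peak (right), in percent, by peak width, for sham-leaning, balanced and injury-leaning domains; bars are 95% Wilson intervals over peaks. In sham-leaning domains the share of sham peaks rises from 11.9% at 199 bp to 63.7% over 1 kb and lies below both other classes at every width.

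Counted in base pairs, 172 kb lay under peaks of both lists, 19.1% of the sham and 68.3% of the injury sequence of these domains. The sham sequence not shared was of 2 kinds. Sham peaks without any injury peak held 518 kb (57.5% of the sham base pairs), and the flanks of sham peaks that did overlap an injury peak held 212 kb (23.5%). The injury list added 50.6 kb in peaks of its own and 29.1 kb in flanks. In injury-leaning domains, taken the other way round, 51.7% of the injury base pairs lay in peaks without overlap and 29.5% in flanks.

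**Figure D4:**
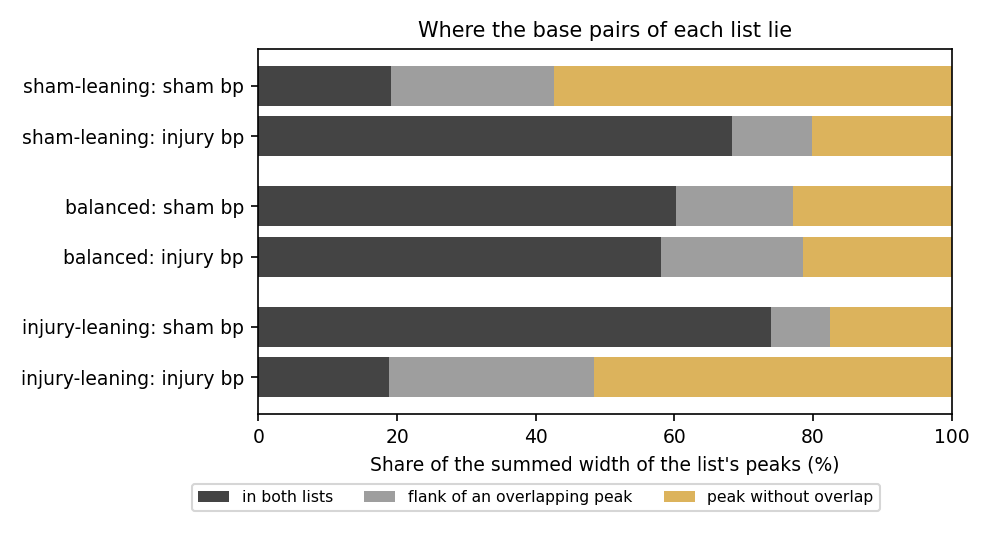
Summed peak width of each list divided into base pairs in both lists, flanks of overlapping peaks and peaks without overlap, as a percentage, for the 3 classes of domain. In sham-leaning domains 57.5% of the sham base pairs lie in peaks without overlap, against 22.9% in balanced domains.

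Where a sham and an injury peak did overlap, the sham peak was usually the wider, as the rule on summed widths favours. The domains held 563 overlapping pairs. The sham peak was wider in 410 (72.8%), the injury peak in 63 (11.2%), and 90 were equally wide, 44 of these with identical borders. The sham peak was wider by a median of 300 bp, with quartiles of 0 and 800 bp. In 338 pairs (60.0%) the injury peak lay inside the borders of the sham peak, and in 192 (34.1%) the sham peak reached past it on both sides. In 50 cases a single sham peak met 2 or more injury peaks, whereas 5 injury peaks met 2 or more sham peaks. In balanced domains the sham peak was the wider in 37.8% and the injury peak in 46.7% of 2296 pairs. In injury-leaning domains the injury peak was the wider in 83.2% of 1025 pairs, and in 69.3% the sham peak lay inside its borders.

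The widest sham peak of a domain (the leftmost where several tied) overlapped an injury peak in 202 of 402 domains (50.2%, 45.4 to 55.1). In balanced domains 82.9% did. In injury-leaning domains, taken the other way round, the widest injury peak overlapped a sham peak in 57.0% (53.3 to 60.7). The share was 30.5% in the 151 domains with a single injury peak, 56.0% with 2 and 74.1% with 3 or more. More injury peaks by themselves raise the chance that 1 of them meets the widest sham peak. The summed sham width also differed, with medians of 1895, 1893 and 2497 bp, and the rise was not tested. A lone injury peak lay on the widest sham peak in 46 of the 151 domains, on another sham peak in 71, between sham peaks in 17 and beyond the outermost sham peak in 17.

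Sham peaks without an injury peak were narrower than the overlapping ones and lay further from injury peaks than in the other classes. These 1324 peaks averaged 392 bp, against 762 bp for the 503 overlapping ones, and 540 of them (40.8%) had the smallest width, but 62 were wider than 1 kb and the widest spanned 2499 bp. Their distance to the nearest injury peak of the domain had a median of 2.60 kb, with quartiles of 0.876 and 7.23 kb, and 367 (27.7%, 25.4 to 30.2) lay within 1 kb of one. In balanced domains the median for such sham peaks was 1.00 kb and 49.1% (46.4 to 51.7) lay within 1 kb, and in injury-leaning domains 0.901 kb and 50.8% (45.3 to 56.2), with more injury peaks per domain at hand by the rule and no test of the difference. Sham peaks without overlap were narrower in the other classes too. Their mean width was 295 bp against 628 bp with overlap in balanced domains, and 249 against 369 bp in injury-leaning domains. Series of sham peaks without overlap are favoured by the rule, which leaves few injury peaks per domain. They were not counted in the other classes. In 196 domains (48.8%) at least 3 sham peaks followed each other with no injury peak on or between them. The longest such series counted 5 peaks in 19 domains, 6 in 13 and 7 in 1. In the other direction, the 197 injury peaks without a sham peak averaged 257 bp, 121 of them had the smallest width, none exceeded 1 kb, and 103 lay within 1 kb of a sham peak.

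In 51 domains (12.7%, 9.78 to 16.3) no sham peak overlapped any injury peak. These domains held 227 sham and 71 injury peaks, 34 of them had a single injury peak, and 42 of the 71 injury peaks had the smallest width. The shortest distance between the lists had a median of 0.701 kb per domain and was at most 1 kb in 27 of them, with a highest value of 12.2 kb. The median sums were 1495 bp of sham and 299 bp of injury peaks. In balanced domains the share without overlap was 4.53%, and in injury-leaning domains 12.0%.

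The authors' deposited differential lists name sites scored as different between the conditions, from the same samples that the rule used. Of the sham peaks of these domains, 301 (16.5%, 14.8 to 18.2) stood in the authors' deposited sham differential list, beside 11.7% of the whole sham list, and nothing can be read from the excess, since rule and list share the contrast. All but 6 of the 301 had no overlapping injury peak. The same held for all 168 sham differential peaks of balanced domains and all 29 of injury-leaning domains. Of all sham peaks, 27.5% in sham-leaning domains and 46.5% in the whole list overlapped an injury peak. The differential and injury lists share their samples, so nothing can be read from this lack of overlap. It was not computed over the whole sham differential list. At least 1 sham differential peak stood in 193 domains (48.0%), 2 or more in 71 and 3 or more in 25, so that 209 domains leaned to sham without any site in that list. At least 1 stood in 13.8% of balanced and 4.24% of injury-leaning domains. Those classes held fewer sham peaks per domain (medians of 3 and 2, against 4), and nothing can be read from the difference for the same reason. The 295 sham differential peaks without overlap lay a median of 4.30 kb from the nearest injury peak of the domain, and the 1029 other sham peaks without overlap 2.30 kb. An injury peak lay within 1 kb of 13.2% (9.82 to 17.6) of the former and 31.9% (29.1 to 34.8) of the latter, with mean widths of 409 and 387 bp. The differential and injury lists come from the same samples, so this difference was not tested. It was not computed for the other classes. Of the 755 injury peaks, 14 (1.85%) stood in the authors' deposited injury differential list, beside 13.5% of the whole injury list. Nothing can be read from this lower share either, since the rule favours it. In injury-leaning domains 2.17% of the sham peaks stood in the sham differential list. The 14 injury differential peaks lay in 13 domains, 6 of which also held a sham differential peak.

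The 10 domains with the largest summed sham width held 4795 to 6994 bp of sham peaks. In 9 of the 10 the widest sham peak overlapped an injury peak, and 6 of their 51 sham peaks were differential, a share near the 11.7% of the whole sham list. The largest lay on chromosome 1 at 171873701 to 171885999. Its 6 sham peaks covered 6994 bp, among them a peak of 4899 bp at 171875001 to 171879899, the widest sham peak of any of the 402 domains. The only injury peak, of 999 bp, lay inside that wide peak at 171876801 to 171877799, and the other 5 sham peaks were 2101 to 8001 bp away from it. On chromosome 6 at 22317401 to 22329699, 7 sham peaks of 6693 bp faced 2 injury peaks of 1298 bp. A sham peak of 2199 bp and an injury peak of 1099 bp began at the same position, 22325201, while 4 sham peaks to the left, of 199 to 1499 bp, had no injury peak.

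On chromosome 3 at 34215601 to 34226399, a single injury peak of 1799 bp lay inside a sham peak of 3599 bp at the right end, and 4 further sham peaks stood to the left. On chromosome 19 at 10059801 to 10088799, 7 sham peaks fell into 2 clumps at the ends of 29.0 kb. A sham peak of 2599 bp in the left clump held an injury peak of 299 bp, and the other injury peak, of 399 bp, stood alone at the centre, 8901 bp from the nearest sham peak. In 3 further domains of this group both injury peaks lay on sham peaks. On chromosome 1 at 17688901 to 17696199, 4 sham peaks of 4896 bp faced 1498 bp of injury peaks, and the sham sites they marked were the outermost ones. On the same chromosome at 240369601 to 240395399 the sums were 4795 and 1298 bp, with both shared sites at the right end and 3 sham peaks 11101 to 22301 bp away. On chromosome 2 at 219961501 to 219972299 they were 4795 and 1998 bp.

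**Figure D5:**
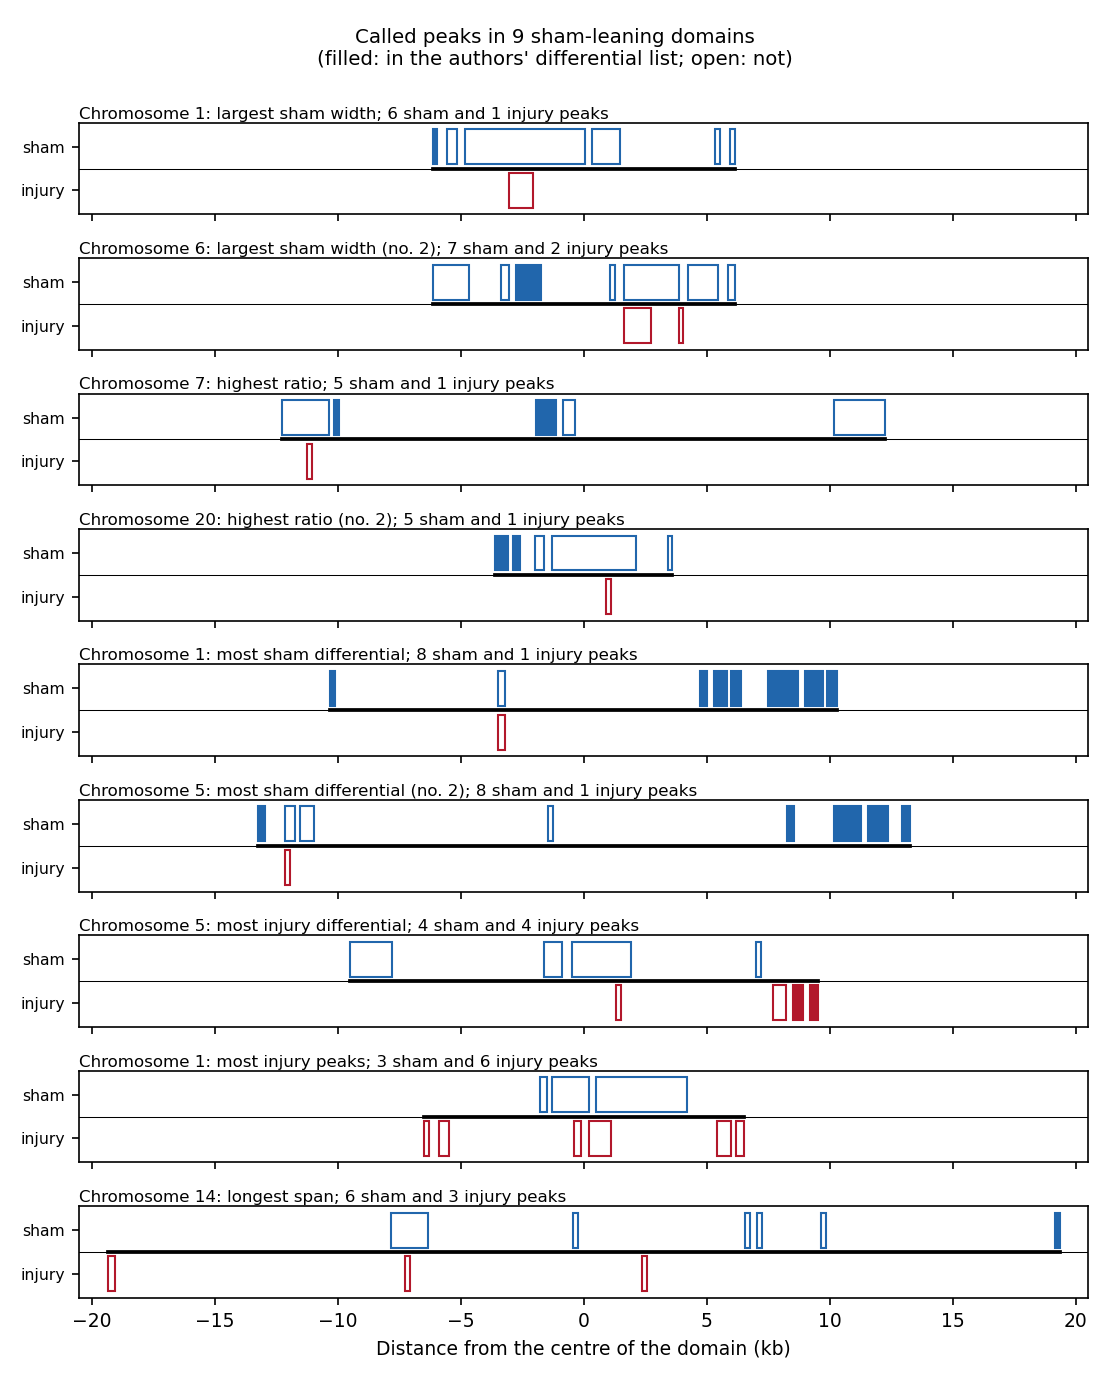
Called peaks of 9 sham-leaning domains, sham above and injury below the line, by distance from the centre of the domain in kb; filled boxes are in the authors' differential lists and the thick line is the span of the domain. An injury peak lies inside the widest sham peak of the domains on chromosomes 1, 6 and 20 at the top. The 2 domains with the most sham differential peaks show a shared site left of the centre. Their filled sham peaks lie mostly at the far right, with another at the left end.

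The 5 highest ratios, 18.1 to 27.6, all belonged to domains whose only injury peak had the smallest width of 199 bp. Ranking by the ratio favours this, since 199 bp is the lowest summed injury width a domain can have. The highest lay on chromosome 7 at 135312301 to 135336799, where 5 sham peaks covered 5495 bp. The injury peak lay inside a sham peak of 1899 bp at the left end, and the widest sham peak, of 2099 bp, stood 21201 bp away at the right end with no injury peak near it. On chromosome 20 at 30568801 to 30575999 the ratio was 24.1, and the injury peak lay inside a sham peak of 3399 bp. The third, on chromosome 10 at 102965701 to 102974299, had a ratio of 21.1, and its injury peak shared the left border of a sham peak of 699 bp. The fifth, on chromosome 2 at 242933401 to 242954099, held 6 sham peaks of 3594 bp that no injury peak overlapped, and none of them was differential. Its injury peak, at 242933401 to 242933599, lay 6201 bp from the nearest sham peak and stood in the authors' deposited injury differential list.

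Sham differential peaks were most numerous in 8 domains, with 7 in 1, 5 in 1 and 4 in 6 of them. Each of the 8 held 1 injury peak, and in none did the widest sham peak overlap it. The choice favours this, since nearly all sham differential peaks had no overlap, and nothing can be read from it. Among all 151 sham-leaning domains with a single injury peak, the widest sham peak was overlapped in 30.5%. On chromosome 1 at 37751301 to 37771899, 7 of 8 sham peaks were differential. The exception, at 37758101 to 37758399, was listed for injury with the same borders. The 6 differential peaks to its right, of 299 to 1199 bp at 37766301 to 37771899, began 7901 bp from it. On chromosome 5 at 55199501 to 55225999, 5 of 8 sham peaks were differential and 4 of these stood at the right end, 20201 to 24901 bp from the injury peak at the left end, which shared a border with a sham peak of 399 bp. Of the 6 tied domains with 4 differential sham peaks, the 3 with the largest summed sham width were the chromosome 10 domain described above, 277851801 to 277867799 on chromosome 1 and 36368601 to 36377499 on chromosome 19. In these 5 named domains the injury peak overlapped a sham peak that was not differential. Among the remaining 3, that of chromosome 20 at 11895701 to 11911099, picked out after its values were seen, had 4 sham peaks, all differential, and none overlapped the injury peak.

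Sites of the authors' deposited injury differential list stood beside broader sham sites in some of the 13 domains that held one. On chromosome 5 at 138774201 to 138793199, the domain with the most injury differential peaks, 4 sham peaks covered 4996 bp and 4 injury peaks 1396 bp. Sham peaks of 1699, 699 and 2399 bp filled the left and the middle, with 1 injury peak of 199 bp inside the widest. Injury peaks of 499, 399 and 299 bp stood at the right end, next to a sham peak of 199 bp, and the last 2 of them were injury differential. Of the 12 domains with 1 such peak, 4 were named by their summed sham width, among them the chromosome 2 domain above. On chromosome 1 at 205506301 to 205525499, an injury differential peak of 199 bp marked the left end, and 4 sham peaks of 399 to 1399 bp without an injury peak lay at the right, 1 of them sham differential. On chromosome 16 at 48483301 to 48497299, an injury differential peak of 299 bp stood 401 bp from a sham peak of 199 bp, and a sham differential peak of 999 bp lay further right.

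The most injury peaks in a domain were 6 and 5, in 1 domain each, followed by 4 in 12 tied domains, of which the one with the largest summed injury width is named. In these 3 domains several narrow injury peaks lay on or around wide sham peaks. On chromosome 1 at 49302001 to 49314999, 3 sham peaks of 299, 1499 and 3699 bp stood in the middle and covered 5497 bp. Around them were 6 injury peaks of 199 to 899 bp, 2694 bp in all, of which 2 overlapped a sham peak and 4 lay outside on both sides, 1201 to 4501 bp away. On chromosome 14 at 107211701 to 107232699, 3 injury peaks of 499, 399 and 199 bp lay inside 1 sham peak of 1899 bp. On chromosome 16 at 58910301 to 58918199, a sham peak of 2099 bp likewise met 3 of the 4 injury peaks, while a sham peak of 1899 bp at the left border met none, and the fourth injury peak, at the right border, was injury differential. None of these 3 domains held a sham differential peak.

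The longest domain, on chromosome 14 at 5409701 to 5448399, spanned 38.7 kb, and its 6 sham and 3 injury peaks covered 7.73% of it. The shortest, on chromosome 1 at 189735801 to 189737199, spanned 1.40 kb, with 3 sham peaks of 997 bp and 2 injury peaks of 498 bp that both lay within sham peaks. At the threshold, 8 domains had a ratio of exactly 2, among them 1396 against 698 bp on chromosome 2 at 255149701 to 255157899, 796 against 398 bp on chromosome 4 at 148755601 to 148772499, and 1396 against 698 bp on chromosome 5 at 176499301 to 176513399. Just outside it were 1994 against 998 bp on chromosome 20 at 24544401 to 24556599, which held 3 sham differential peaks, 1196 against 599 bp on chromosome 5 at 90781801 to 90786099, and 796 against 399 bp on chromosome 5 at 106549201 to 106574399. Widths change in steps of about 100 bp, so 1 step moves such domains across the threshold.

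Every autosome (20 in all) and chromosome X held sham-leaning domains. Chromosome 1 held the most (59) and chromosome 15 the fewest (7). As a share of the shared domains of 5 to 9 peaks, they ran from 11.3% (7.15 to 17.3) on chromosome 10 to 29.6% (15.9 to 48.5) on chromosome X, where there were 8 of 27, and they made up 26.5% (19.8 to 34.5) on chromosome 5. Injury-leaning domains outnumbered them on every chromosome but X, where there were 7. The gap to the nearest other domain of any kind had a median of 22.95 kb. That neighbour held only sham peaks for 108 sham-leaning domains (26.9%, 22.8 to 31.4), only injury peaks for 84 (20.9%, 17.2 to 25.1), leaned to sham for 32 (7.96%) and leaned to injury for 9 (2.24%). Of all 16558 domains, 23.0% held only sham peaks, 31.9% only injury peaks, 2.43% leaned to sham and 4.13% leaned to injury. For balanced domains the nearest neighbour held only sham peaks in 18.1% and only injury peaks in 22.7%, and for injury-leaning domains in 13.6% and 33.2%. A neighbour of the same class exceeded its share of all domains in the other classes too. It was injury-leaning for 65 of 684 injury-leaning domains (interval 7.53 to 11.9%). It was balanced for 119 of 1038 balanced domains (9.67 to 13.5%), while 6.27% of all domains were balanced. These differences were not tested.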

How the data were processed

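The authors deposited 1 H3K27ac peak list for each condition (31894 injury and 28114 sham peaks) and 1 differential list for each (4312 and 3290 peaks), as chromosome, start and end in base pairs. Tools named in the submitters' processing notes are HOMER, Bowtie and CASAVA 1.8.2, with the build Rnor_5.0 and no stated roles. The sources used here do not state the peak caller, its thresholds or the pooling of replicates. Blank lines were dropped and 8 peaks written with exponents were read as whole numbers. All starts lay on multiples of 100 bp. Printed starts are 1-based and widths are end minus start. Peaks were linked, classed and compared in Python 3.11.15, and shares carry 95% Wilson intervals (scipy 1.17.1). A peak was differential when it overlapped a peak of the differential list by at least 1 bp. Domain finding was tested on simulated peaks. Named domains are the 10 with the largest summed sham width, the 5 each with the most sham differential peaks, the most injury differential peaks and the highest ratio, the 3 with the most injury peaks, the longest, the shortest, and 3 on each side of the threshold, with ties broken by summed sham width (by summed injury width for the most injury peaks). The domains, classes and naming rule were chosen with earlier results of these data known. Alternatives changed link distance, size and ratio rules, peak filter, scaling and overlap.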

Additional observations from a re-analysis of the deposited data

Results flagged for a closer look

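In the running line number of the injury list, which no comparison used, 94.7% (95% Wilson interval 90.0 to 97.3) of the 152 injury peaks in sham-leaning domains of chromosomes 1 and 14 fell within the final 20% of the lines, against 6.47% of the 603 on the other chromosomes. Over all injury peaks the shares were 95.4% of 5320 and 4.91% of 26574, so the pattern was one of the whole list. Of the sham peaks in these domains the shares were 20.9% of 340 and 18.6% of 1487 peaks. The sources used here do not say what the order of the lines stands for, and its part in the results was not tested; without chromosomes 1 and 14, 326 domains remained and 27.3% of their sham peaks overlapped an injury peak.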

How the results depend on the processing

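No paired analysis was possible because each condition has 1 pooled list without values per sample, which also prevents leaving a replicate out. The share of sham peaks overlapping an injury peak (27.5%), of injury peaks overlapping a sham peak (73.9%) and of sham peaks in the differential list (16.5%) were 31.8%, 81.5% and 13.9% with a link distance of 5 kb, and 23.8%, 66.9% and 18.5% with 25 kb. With the lean judged by peak numbers they were 30.7%, 78.1% and 14.5%, and with peaks at the smallest width dropped 30.4%, 81.1% and 12.6%. With widths scaled to the total of each list, 30.8% of sham peaks overlapped and 14.8% were differential, and with a width ratio of at least 3, 21.4% and 19.9%. With overlapping peaks counted once for domain size, 70.5% of injury peaks overlapped. A reciprocal overlap of 50% gave 10.2% for sham and 24.6% for injury peaks, and peaks extended by 500 bp on each side gave 47.6% and 87.5%. The 402 domains became 237 without the narrowest peaks and 229 at a ratio of 3, and were 308 to 523 under the other 6 rules. The shares recomputed under a setting but not listed for it stayed within the counting interval of the main value; the differential share was not recomputed with extended peaks. The cause of these shifts was not tested. In every setting run, a larger share of injury than of sham peaks overlapped the other list, as the choice of domains favours. No depth or peak strength was at hand, so near-threshold calls could not be told from strong ones.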

Other observations

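Some sham-leaning domains lay close together: 50 of the 402 stood in 23 runs in which each was at most 100 kb from the next, and 3 runs held 3 or more. The run with the most domains, on chromosome 17 at 52547601 to 52747099, held 4 domains within 199.5 kb, with 23 sham peaks of 11077 bp, 9 injury peaks of 3291 bp and 6 sham differential peaks. Only 3 further sham peaks and no further injury peak were called in that span. A run of 3 on chromosome 5 at 106243901 to 106378099 held 13 sham and 4 injury peaks (5887 against 1396 bp), and a run of 3 on chromosome 1 at 40370401 to 40535899 held 15 sham and 6 injury peaks (3785 against 1394 bp). On chromosome 1 the span also held balanced or other domains, with 27 sham and 15 injury peaks in all. These runs were chosen for display with their positions known, and their number was not compared with any expectation.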
